A study of Mus musculus with 67 samples.

Results

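The colony-stimulating factor receptors and ligands were taken from the 3 count tables by gene symbol: the receptor genes Csf1r, Csf2ra, Csf2rb, Csf2rb2 and Csf3r and the ligand genes Csf1, Il34 and Csf3. These are 8 genes of the 24421 listed for the LPS experiment and of the 24411 listed for the digest and driver experiments, taken by name and not by a threshold on their values. The series holds 67 RNA-seq libraries from the brains of C57BL/6J mice, in which a Cre recombinase expressed from the Cx3cr1 locus switches on an HA-tagged ribosomal protein, RPL22, so that anti-HA antibody pulls down the messages being translated in the tagged cells. In the LPS experiment (28 libraries) CX3CR1CreER/WT RLP22HA/HA mice, all given tamoxifen, received LPS at 2.5 mg/kg into the peritoneum or PBS, and tissue was taken 3 h after LPS. From LPS mice (4 libraries each) and from PBS mice (3 libraries each) the study made whole-brain pull-downs, IgG1 control pull-downs, sorted cells, and pull-downs from sorted cells. The digest experiment (15 libraries) used the same genotype with tamoxifen and no LPS. It compared cells sorted after a 20 min digest at 37 °C with Collagenase D and DNase (4 libraries), cells sorted without the digest (4), whole-brain pull-down (3) and IgG1 (4). The driver experiment (24 libraries) held pull-down, IgG1 and total-extract input libraries from CX3CR1Cre/WT RLP22HA/HA mice without tamoxifen (3 of each), CX3CR1CreER/WT RLP22HA/HA mice with tamoxifen (3 of each) and the same genotype without tamoxifen (2 of each). Tamoxifen was 4 gavage doses of 5 mg at 4 to 6 weeks of age, and no other age is stated. The protocol gives 125 µg for the anti-HA antibody and 1 µg for IgG1, unequal amounts. Sorted cells were gated as negative for GR1, intermediate for CD45 and positive for CD11b, which leaves out cells carrying the granulocyte marker GR1. The design text counts individual mice as the biological repeats and states that sorting and pull-down used the same animal.

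CSF1 and IL-34 are different proteins that bind the same receptor tyrosine kinase, CSF1R, and microglia depend on it for survival; IL-34 is mostly supplied by neurons and CSF1 by glia. GM-CSF signals through an alpha chain encoded by Csf2ra and the common beta chain encoded by Csf2rb, which IL-3 and IL-5 receptors share, and the mouse carries a second beta chain, Csf2rb2, that serves IL-3 alone. G-CSF, the product of Csf3, acts through CSF3R and is known for driving neutrophil production. The gene for GM-CSF itself, Csf2, had 0 reads in all 67 libraries.

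Libraries held 166851 to 3513317 counted reads, and pull-down from CX3CR1CreER mice without tamoxifen was the shallowest group of the driver experiment at 186099 to 219521 reads. Levels are given as CPM, the reads of a gene over the counted reads of all genes tested, times 1e6. They carry TMM scaling, edgeR's default, which takes most genes as unchanged between libraries. Differences are log2 fold changes with standard errors from edgeR's quasi-likelihood test, with Benjamini-Hochberg adjustment over all genes tested and calls at an adjusted p under 0.05. Every adjusted p below is from that test unless another tool is named. The test judges a difference against the spread between libraries within groups. That spread is estimated over all groups of an experiment, except where groups are said to be fitted alone. The 15 microglial markers summed to 43733 to 54982 CPM in pull-down from LPS mice and 46640.3 to 51046 CPM in pull-down from PBS mice, against 1058 to 1538 CPM in IgG1 from PBS mice. In the driver experiment they summed to 2659 to 6470.2 CPM in CX3CR1Cre pull-down, 62339.6 to 81416 CPM in CX3CR1CreER pull-down with tamoxifen and 12329 to 14141 CPM without it, against 869 to 1008 CPM in input of the tamoxifen group, so the CX3CR1Cre pull-down held the marker genes of the labelled cell type at a low level. The beta-chain genes Csf2rb and Csf2rb2 are near-identical neighbours (chromosome 15, 37.36 and 37.22 cM per the tables' annotation), and the division of reads between them is uncertain.

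In PBS mice 4 of the 5 receptor messages were far more abundant in the whole-brain pull-down than in IgG1, and neither measured CSF1R ligand was called higher. Csf1r, the survival receptor of microglia, had 6941, 5771 and 6294 CPM in pull-down from PBS mice and 157, 190.2 and 219.8 CPM in IgG1 from PBS mice. The groups were far apart, and the difference was 5.07 ± 0.22 on the log2 scale (adjusted p = 2.62e-30). Csf3r, the G-CSF receptor, had 125, 132 and 121 CPM in the pull-down and 6.08, 6.31 and 3.11 CPM in IgG1, a difference of 4.59 ± 0.42 (adjusted p = 5.5e-11). The common beta chain Csf2rb had 102, 94.6 and 102 CPM in the pull-down and 8.78, 4.20 and 8.54 CPM in IgG1, a difference of 3.72 ± 0.26 (adjusted p = 1.91e-20). Csf2rb2 had 43.8, 36.8 and 38.2 CPM in the pull-down and 3.38, 1.05 and 1.55 CPM in IgG1, a difference of 4.13 ± 0.38. Every pull-down library stood above every IgG1 library for these 4 receptors. Csf2ra, the GM-CSF alpha chain, was the exception among receptors: 12.4, 13.8 and 8.41 CPM in pull-down and 4.05, 10.5 and 8.54 CPM in IgG1 overlapped, with a difference of 0.66 ± 0.44 (adjusted p = 0.184).

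Of the ligands in PBS mice, Csf1 had 24.1, 24.97 and 26.7 CPM in pull-down and 11.5, 26.3 and 16.3 CPM in IgG1. These ranges overlapped, and the difference of 0.55 ± 0.28 did not pass the test (adjusted p = 0.0804). Il34 had 17.5, 17.1 and 12.2 CPM in pull-down and 18.2, 50.4 and 15.5 CPM in IgG1, so 1 IgG1 library stood high and the others lay at the pull-down level. Its difference was -0.76 ± 0.34 (adjusted p = 0.0426), which was -0.10 (adjusted p = 0.82) without IgG1 replicate 2; it was also not called without any 1 of the 3 pull-down libraries (adjusted p values of 0.0556 to 0.148). Without the same IgG1 library Csf1 was called, at 0.88 (adjusted p = 0.0125). The neuronal markers, 12 genes, summed to 1957 to 2324 CPM in pull-down and 6187 to 7691 CPM in IgG1 from PBS mice. The part of these cells in the Il34 level was not tested. In these bulk libraries, fewer cells of a type and less RNA per cell cannot be told apart.

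Across the table, 65.0% of genes were called between pull-down and IgG1 in PBS mice and 5 of the 8 members were, 4 higher and 1 lower. In LPS mice 7 of 8 were called, 6 higher and 1 lower, where 73.0% of all genes were called. The 2 added calls were Csf1, at 62.6, 59.00, 59.1 and 59.4 CPM in pull-down and 29.8, 23.3, 21.8 and 20.7 CPM in IgG1 of LPS mice (1.31 ± 0.21), and Csf2ra (1.39 ± 0.34). Il34 was the lower one, at 14.8, 13.04, 17.7 and 24.9 CPM in pull-down and 25.5, 36.9, 19.1 and 29.6 CPM in IgG1 of LPS mice, which overlapped (-0.75 ± 0.28, adjusted p = 0.0151). It missed the threshold without pull-down replicate 1 or 2 or IgG1 replicate 2 (adjusted p values up to 0.0729). Csf2ra missed it with DESeq2's Wald test (adjusted p = 0.0834). The member counts alone are therefore near the background, and the sizes say more: the median difference over all genes was -0.02 in PBS mice and 0.02 in LPS mice. With DESeq2 size factors that median was -0.53 in PBS mice and -0.64 in LPS mice, and Csf1r stood at 4.55 and 4.15. In the digest experiment, 74.5% of genes were called between pull-down and IgG1, and 6 of the 7 members tested were, 5 higher and 1 lower. Of all genes 26.7% were called higher and 47.8% lower in that comparison, with a median difference of -0.47. There Csf1r had 6428, 5091 and 4815 CPM in pull-down and 103, 124, 91.2 and 122 CPM in IgG1, a difference of 5.63 ± 0.15 (adjusted p = 1.21e-29). Csf2ra, which had not separated in PBS mice, had 40.2, 41.1 and 35.1 CPM in pull-down and 7.80, 14.3, 9.20 and 13.3 CPM in IgG1, a difference of 1.80 ± 0.22 (adjusted p = 1.67e-09). Il34 had 11.4, 14.3 and 6.38 CPM in pull-down and 30.4, 35.2, 37.5 and 28.03 CPM in IgG1, without overlap, and fell by 1.63 ± 0.29 on the log2 scale (adjusted p = 5.49e-06). Csf2rb2 had 162 reads in the 3 pull-down libraries against 2 reads in the 4 IgG1 libraries, a ratio of 91.1 by depth with a 95% counting interval of 24.8 to 758. Csf1 was not called there, at 0.24 ± 0.27, but was with these groups fitted alone (0.70, adjusted p = 0.0394). Csf3 had 1 read in the 15 libraries of the digest experiment and 0 reads in the 24 of the driver experiment, so it was not tested in either.

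**Figure D1:**
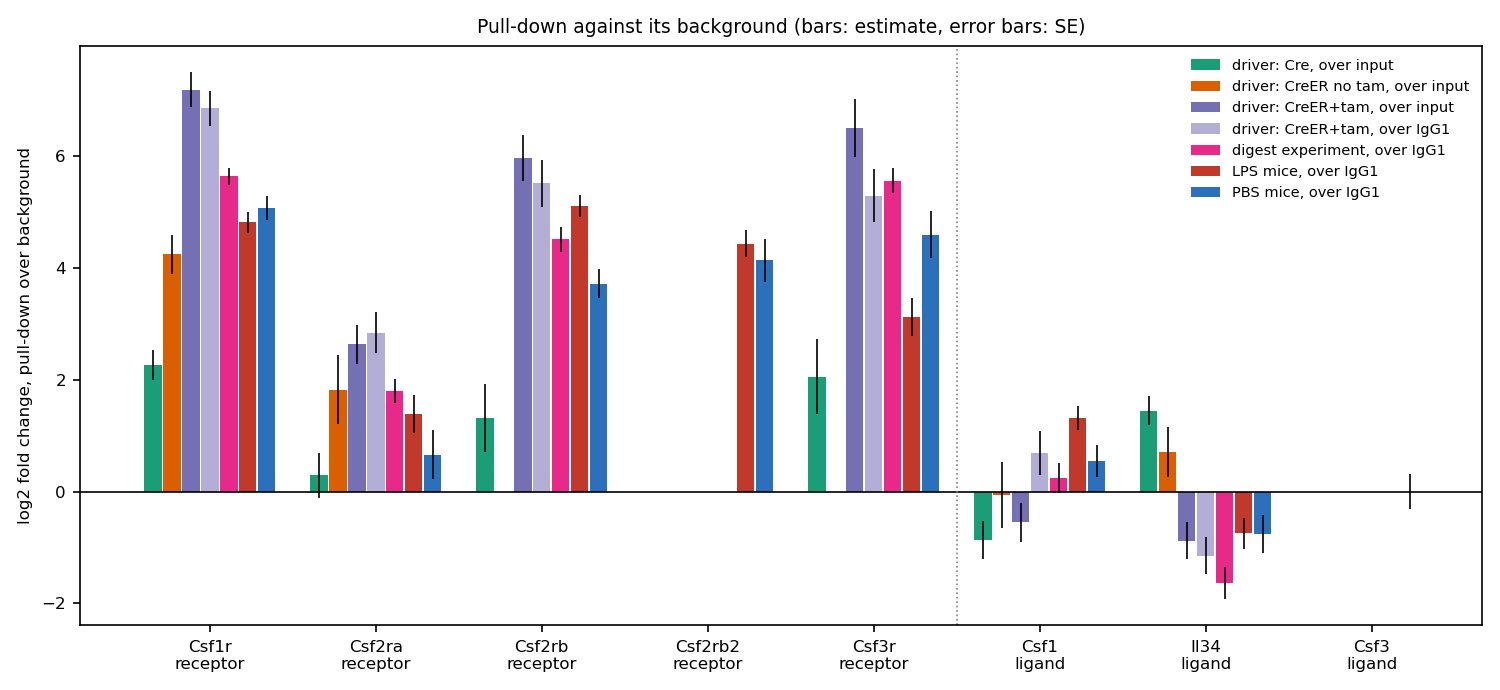
Log2 fold change of each receptor and ligand gene in pull-down over its background (y axis; bars are edgeR estimates, error bars standard errors), by experiment and background, with receptors left of the dotted line. Bars are left out where a group held 3 reads or fewer, or where the gene was not tested; Csf1r reached 7.18 ± 0.32 in the driver experiment with tamoxifen, while Il34 lay below 0 in every pull-down from CX3CR1CreER mice with tamoxifen.

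At 3 h after LPS the beta chains Csf2rb and Csf2rb2 and the ligands Csf1 and Csf3 rose in the whole-brain pull-down and the G-CSF receptor Csf3r fell. These 5 of 8 members were called where 26.5% of all genes were, with a member median of 1.02 against -0.03 over all genes. Csf2rb had 497, 497, 396 and 413 CPM in pull-down from LPS mice and 102, 94.6 and 102 CPM in pull-down from PBS mice. The groups were widely separated, and the rise was 2.18 ± 0.17 (adjusted p = 2.01e-17). Csf2rb2 had 142, 136, 112 and 102 CPM under LPS and 43.8, 36.8 and 38.2 CPM under PBS, again with no overlap, a rise of 1.65 ± 0.19 (adjusted p = 9.71e-11). Csf2ra, the chain with which Csf2rb forms the GM-CSF receptor, had 27.3, 17.4, 21.04 and 8.64 CPM under LPS and 12.4, 13.8 and 8.41 CPM under PBS. The lowest LPS library lay inside the PBS range, and the difference of 0.79 ± 0.32 was not called (adjusted p = 0.065). Without that library, replicate 4, it was 0.95 (adjusted p = 0.018). With all libraries and no filter on low counts it was 0.83 and called (adjusted p = 0.0251).

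Csf1r was not called with LPS in the whole-brain pull-down. It had 5778, 6752, 5556 and 6269.8 CPM under LPS and 6941, 5771 and 6294 CPM under PBS. The groups overlapped, with a difference of -0.06 ± 0.17 (adjusted p = 0.852). Csf3r had 78.1, 86.3, 63.1 and 88.6 CPM in pull-down from LPS mice and 125, 132 and 121 CPM in pull-down from PBS mice, with every LPS library below every PBS library. It fell by 0.68 ± 0.25 on the log2 scale (adjusted p = 0.0457). That call was lost without any of the 7 libraries in turn, at adjusted p values of 0.0515 to 0.125 and changes of -0.73 to -0.59, and with a replicate block (adjusted p = 0.0687). Of the 15 microglial markers 8 were called lower with LPS and 1 higher in the same pull-down, with a median of -0.59, and of the 10 border macrophage markers 3 were called lower. Their part in the Csf3r change was not tested.

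Among the ligands, Csf1 had 62.6, 59.00, 59.1 and 59.4 CPM in pull-down from LPS mice and 24.1, 24.97 and 26.7 CPM in pull-down from PBS mice. Both groups were narrow and far apart, and the rise was 1.25 ± 0.22 (adjusted p = 4.8e-06). Il34 had 14.8, 13.04, 17.7 and 24.9 CPM under LPS and 17.5, 17.1 and 12.2 CPM under PBS, overlapping, a difference of 0.10 ± 0.32 (adjusted p = 0.865). Csf3, the G-CSF gene, had 73, 131, 70 and 34 reads in the LPS pull-downs and 0, 0 and 1 reads in the PBS pull-downs. In CPM the LPS pull-downs had 24.1, 81.4, 47.5 and 36.7. The ratio by depth was 184, with a 95% counting interval of 32.7 to 7276 that rests on the 1 read of the PBS group; edgeR's adjusted p was 6.61e-09.

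The rise of Csf3 was present in IgG1 too. Csf3 had 29.1, 56.9, 68.2 and 39.2 CPM in IgG1 from LPS mice and 0.675, 3.15 and 0.777 CPM in IgG1 from PBS mice, a rise of 4.99 ± 0.62 (adjusted p = 3.36e-06). It was the 1 member called of 8 in IgG1, where 1.15% of all genes were called. Between pull-down and IgG1 in LPS mice the difference of Csf3 was 0.00 ± 0.31 (adjusted p = 0.995), and with DESeq2 size factors it was -0.67 (adjusted p = 0.0479). The LPS pull-downs, at 24.1 to 81.4 CPM, spanned the range of the LPS IgG1 libraries. The 7 endothelial markers summed to 36.9 to 46.4 CPM in IgG1 from LPS mice and 80.3 to 108 CPM in IgG1 from PBS mice; the 8 astrocyte markers summed to 2784 to 2987 CPM and 2547 to 3113 CPM in the same order. Their part in the Csf3 result was not tested.

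The changes of the other members were set against those in IgG1 with an interaction term. The LPS effect in pull-down minus that in IgG1 was 1.39 ± 0.38 for Csf2rb (adjusted p = 0.0114), the 1 member called of 8, where 8.58% of all genes were called. That call was lost without IgG1 replicate 1 of the PBS mice (adjusted p = 0.116) and without replicate 3 (adjusted p = 0.0676). For Csf1 the same difference was 0.77 ± 0.35 (adjusted p = 0.192). For Csf2rb2 it was 0.30 ± 0.74 (adjusted p = 0.877) and for Csf3r -1.47 ± 0.64 (adjusted p = 0.177). Csf2rb2 within IgG1 was higher under LPS by 1.35 ± 0.53, not called (adjusted p = 0.267), on 8 reads in the PBS libraries. Csf1 in IgG1 had 29.8, 23.3, 21.8 and 20.7 CPM under LPS and 11.5, 26.3 and 16.3 CPM under PBS, which overlapped.

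**Figure D2:**
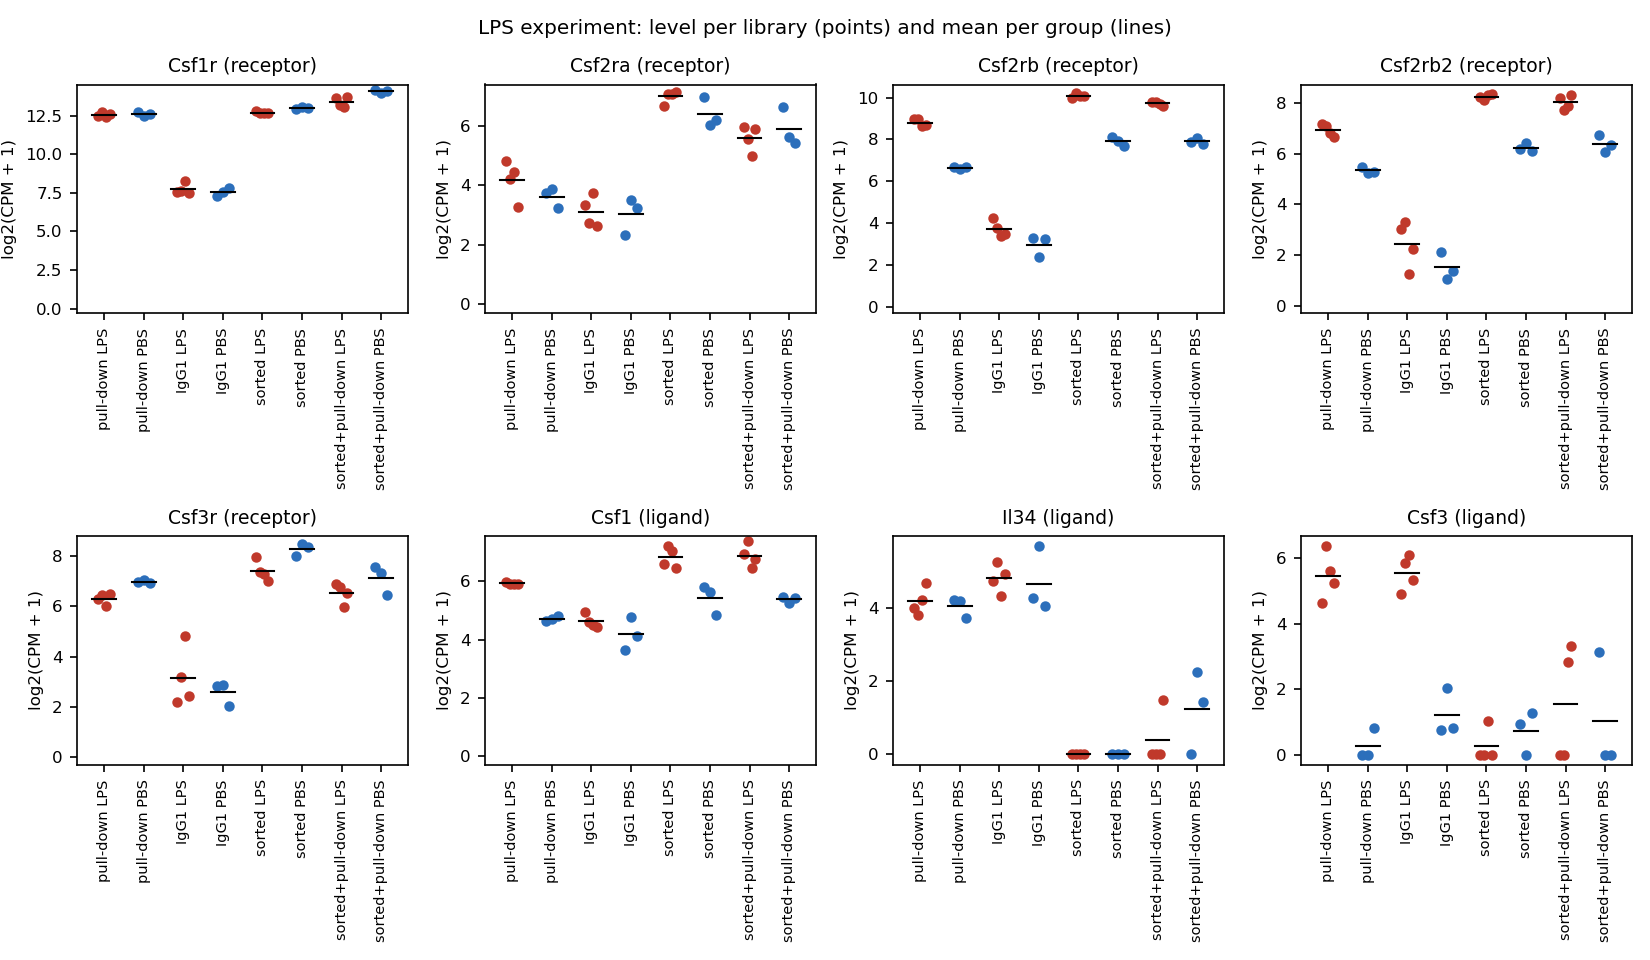
Level of each member in the 28 libraries of the LPS experiment (y axis, log2 of CPM plus 1; points are libraries, lines group means; LPS red, PBS blue). Csf2rb stands higher under LPS without overlap in every preparation, and Csf2rb2 and Csf1 in all but IgG1; Il34 lies at 0 in all sorted cells, and Csf3 is raised in LPS pull-down and LPS IgG1.

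Sorted cells showed the same directions for the beta chains, Csf1 and Csf3r. There 34.5% of all genes were called with LPS and 4 of 8 members were, 3 higher and 1 lower. Csf2rb had 997, 1205, 1073 and 1066 CPM in sorted cells from LPS mice and 277, 241 and 207 CPM in sorted cells from PBS mice, a rise of 2.16 ± 0.16 (adjusted p = 1.2e-17). Csf2rb2 rose by 2.04 ± 0.19, from libraries of 275 to 330.3 CPM under LPS against 67.3 to 84.4 CPM under PBS. Csf1 had 95.8, 147, 129 and 87.9 CPM under LPS and 55.01, 48.4 and 28.03 CPM under PBS, a rise of 1.36 ± 0.22 (adjusted p = 6.2e-07). For these 3 genes no LPS library overlapped a PBS library. Csf3r had 250.2, 167, 158 and 127 CPM in sorted cells from LPS mice and 255, 357 and 334 CPM in sorted cells from PBS mice, and fell by 0.86 ± 0.25 on the log2 scale (adjusted p = 0.00676). The LPS libraries lay below the PBS libraries, the highest LPS library by a small margin.

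Csf1r in sorted cells had 7083, 6650.1, 6494 and 6646 CPM under LPS and 7924, 8571 and 8119.5 CPM under PBS. All LPS libraries were lower, but the difference of -0.29 ± 0.17 was not called (adjusted p = 0.192); it was called with total-count scaling (adjusted p = 0.0401), with DESeq2's Wald test (0.0475) and with the sorted groups fitted alone (0.00932). Csf2ra had 102, 133, 135 and 141 CPM under LPS and 124, 63.7 and 72.9 CPM under PBS, with 1 PBS library inside the LPS range. Its difference of 0.54 ± 0.23 was not called (adjusted p = 0.0663), but was with the sorted groups fitted alone (adjusted p = 0.0303) and with a replicate block (adjusted p = 0.0217). It was also called without PBS replicate 1 (0.92, adjusted p = 0.00542) or LPS replicate 1 (0.61, adjusted p = 0.0429). Of the 15 microglial markers 2 were called higher and 9 lower with LPS in sorted cells, where 17.0% and 17.6% of all genes were. These markers summed to 40886 to 43468 CPM in LPS mice and 50560.4 to 51493 CPM in PBS mice. The 12 neutrophil and monocyte markers summed to 13.7 to 39.99 CPM in sorted cells from LPS mice and 9.69 to 23.8 CPM in sorted cells from PBS mice, with Elane and Retnlg at 0 in both; the part of either list in the receptor changes was not tested.

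In pull-down from sorted cells the same 3 genes rose, and Csf1r was called lower. The LPS effect in this preparation was not tested against that in sorted cells or in whole-brain pull-down. Of the 8 members 4 were called, 3 higher and 1 lower, where 25.6% of all genes were called. Csf1r had 12988, 9456, 8768 and 13542 CPM in pull-down from sorted cells of LPS mice and 18630.4, 15918 and 17401 CPM in those of PBS mice. Every LPS library lay below every PBS library, and the fall was 0.63 ± 0.17 on the log2 scale (adjusted p = 0.00311). In the same order the libraries held 644917, 209147, 166851 and 662404 counted reads under LPS and 581716, 288090 and 669508 under PBS. In each group the shallower libraries had the lower Csf1r levels, and the part of depth in the fall was not tested. Csf2rb rose by 1.81 ± 0.17, with 778 to 895 CPM under LPS and 221 to 266 CPM under PBS, and Csf2rb2 by 1.64 ± 0.21. Csf1 had 122, 165, 86.1 and 107 CPM under LPS and 43.01, 37.01 and 42.2 CPM under PBS, a rise of 1.53 ± 0.27 (adjusted p = 5.32e-06). Csf3r had 117, 108, 61.5 and 93.03 CPM under LPS and 192, 159 and 87.7 CPM under PBS, which overlapped, and its difference of -0.54 ± 0.32 was not called (adjusted p = 0.241). Without PBS replicate 3, the lowest PBS library, it was -0.92 (adjusted p = 0.0294). With all libraries and no filter on low counts it was -0.61 and called (adjusted p = 0.0438). The neutrophil and monocyte markers summed to 51.4 to 89.5 CPM in pull-down from sorted cells of LPS mice and 25.4 to 148 CPM in those of PBS mice. Of the 15 microglial markers 11 were called lower and none higher, where 12.9% of all genes were called lower. The part of either list in the falls was not tested.

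Whether LPS acted differently in sorted cells and in the whole-brain pull-down was tested directly. Of the 8 members 0 were called by edgeR, while 3.21% of all genes were; 1, Csf3, had an unadjusted p under 0.05, and DESeq2's Wald test called it alone. With edgeR it was called with a replicate block (adjusted p = 0.0264) and with no filter on low counts (adjusted p = 0.0129). The estimate for Csf1r was -0.23 ± 0.24 (adjusted p = 0.715), for Csf2rb -0.02 ± 0.21 (adjusted p = 1) and for Csf1 0.11 ± 0.32 (adjusted p = 0.939). Csf3 had 0, 0, 1 and 0 reads in sorted cells from LPS mice and 1, 0 and 1 reads in sorted cells from PBS mice. Its interaction rests on these few reads and had an adjusted p of 0.155 with edgeR and 0.00201 with DESeq2's Wald test. Pull-down from sorted cells had 0, 0, 1 and 5 Csf3 reads under LPS and 4, 0 and 0 reads under PBS.

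**Figure D3:**
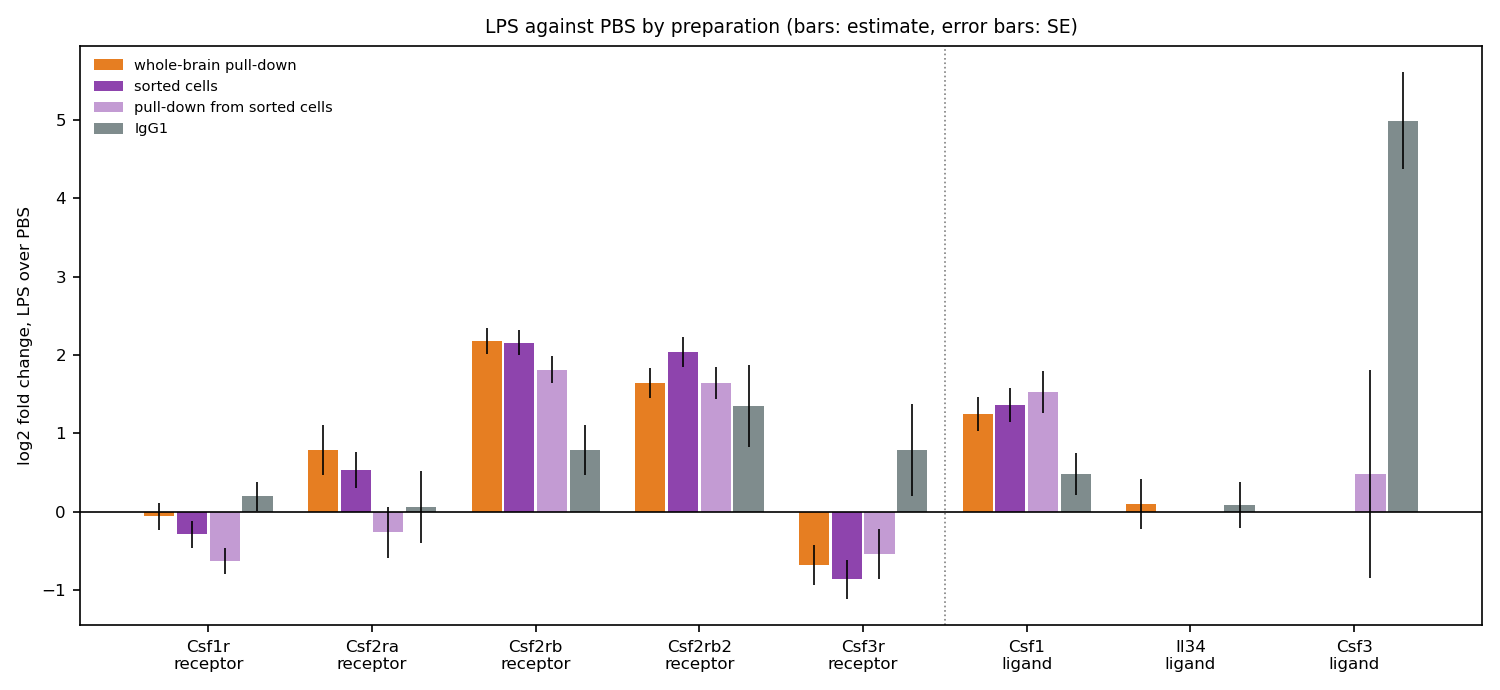
Log2 fold change of each member, LPS over PBS (y axis; bars are edgeR estimates, error bars standard errors), in whole-brain pull-down, sorted cells, pull-down from sorted cells and IgG1. Bars are left out where a group held 3 reads or fewer; Csf2rb shows changes of 2.18 ± 0.17, 2.16 ± 0.16, 1.81 ± 0.17 and 0.79 ± 0.32 in that order, the last not called.

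Start-site sequences are shown for the members that moved with LPS and have an entry in the RefSeq promoter table (build GRCm38.p6; 250 bases before to 50 after the annotated start, on the gene's strand). The table holds 4 of the 8 members, Csf1, Csf2ra, Csf2rb2 and Csf3r. Capitals mark matches on either strand to the NF-kB consensus, to TGANTCA (AP-1) and to GAGGAA (the core of PU.1 sites).
Csf1, chr3:107760420-107760719, minus strand: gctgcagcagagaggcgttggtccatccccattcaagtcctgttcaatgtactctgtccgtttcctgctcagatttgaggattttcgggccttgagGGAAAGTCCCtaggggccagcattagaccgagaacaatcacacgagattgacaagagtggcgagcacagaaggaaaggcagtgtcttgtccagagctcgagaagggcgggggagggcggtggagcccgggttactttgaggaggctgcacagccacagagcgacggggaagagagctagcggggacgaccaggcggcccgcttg
Csf2rb2, chr15:78305672-78305971, minus strand: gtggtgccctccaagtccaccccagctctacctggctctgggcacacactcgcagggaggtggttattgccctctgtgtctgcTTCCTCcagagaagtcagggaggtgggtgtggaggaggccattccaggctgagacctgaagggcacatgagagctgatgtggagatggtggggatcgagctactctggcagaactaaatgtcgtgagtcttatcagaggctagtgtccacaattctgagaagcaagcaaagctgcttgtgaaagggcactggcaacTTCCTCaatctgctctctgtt
Csf3r, chr4:126024409-126024708, plus strand: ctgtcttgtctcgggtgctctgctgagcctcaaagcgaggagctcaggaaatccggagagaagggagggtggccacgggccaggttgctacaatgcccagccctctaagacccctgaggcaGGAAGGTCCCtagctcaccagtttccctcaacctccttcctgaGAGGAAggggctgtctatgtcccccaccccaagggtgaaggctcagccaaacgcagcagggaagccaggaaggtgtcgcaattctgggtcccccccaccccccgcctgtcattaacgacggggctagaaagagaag
Csf1, which rose, held 1 match to the NF-kB consensus, 154 bases before the start, and Csf3r, which fell, held 1 as well, 129 bases before the start. Of the 32851 promoters in the table, 8.46% hold such a match. Csf2rb2, which rose, held no NF-kB match and 2 matches to the PU.1 core, and Csf3r held 1; 28.3% of all promoters hold at least 1. TGANTCA was found in none of the 3 and in 7.81% of all promoters. The Csf2ra window, not printed, held 2 PU.1 core matches and no other. The matches are letters in these windows and say nothing of factor binding.

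Among genes listed for signalling downstream of the receptors, Socs3, Stat3 and Pim1 rose with LPS. The part of these receptors in the rises was not tested. Of 26 listed signalling genes, all tested, 12 were called higher and 1 lower in the whole-brain pull-down, where 26.5% of all genes were called. The median of the listed genes was 0.48, against -0.03 over all genes. Socs3, a feedback inhibitor of cytokine receptors that includes the G-CSF receptor among its targets, rose by 5.92 ± 0.23 (adjusted p = 5.61e-32). Stat3, a transcription factor downstream of CSF3R, rose by 2.94 ± 0.17, and Pim1, a kinase induced by STAT proteins, by 3.97 ± 0.36. In sorted cells 11 were higher and 3 lower, where 34.5% of all genes were called. In pull-down from sorted cells the counts were again 11 and 3, where 25.6% of all genes were called. In IgG1 3 of the 26 were called, all higher, with Socs3 at 2.36 ± 0.26, where 1.15% of all genes were called. Of 12 related ligands and receptors, 5 passed the filter on low counts. Il4ra, the alpha chain of the IL-4 receptor, rose by 2.96 ± 0.17 in the pull-down (adjusted p = 2.37e-23). Il6st, the shared receptor chain gp130, fell by 0.42 ± 0.16 on the log2 scale (adjusted p = 0.0452).

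Compared with the whole-brain pull-down, cells sorted after dissociation had higher levels of most receptors and no Il34. In PBS mice 6 of 8 members were called between sorted cells and pull-down, 5 higher and 1 lower, and in LPS mice 7 of 8 were, 5 higher and 2 lower. The background was 71.9% of genes called in PBS mice and 76.1% in LPS mice, so such counts are near it. Csf2ra had the largest log2 difference of the receptors in PBS mice. It had 124, 63.7 and 72.9 CPM in sorted cells and 12.4, 13.8 and 8.41 CPM in pull-down from PBS mice, a difference of 2.92 ± 0.31 (adjusted p = 4.87e-12). In LPS mice the difference was 2.67 ± 0.23 (adjusted p = 8.56e-15). Csf2rb was higher in sorted cells by 1.28 ± 0.18 in PBS mice and 1.26 ± 0.14 in LPS mice, and Csf3r by 1.32 ± 0.26 and 1.13 ± 0.24 in the same order. Csf2rb2 was higher by 0.91 ± 0.22 in PBS mice, which was not called with no filter on low counts (adjusted p = 0.11). For Csf2ra, Csf2rb and Csf3r the sorted and pull-down libraries did not overlap.

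Csf1r had 7924, 8571 and 8119.5 CPM in sorted cells and 6941, 5771 and 6294 CPM in pull-down from PBS mice, without overlap. The difference of 0.37 ± 0.18 was not called (adjusted p = 0.0611), but was with total-count scaling (0.59, adjusted p = 0.0016), with DESeq2's Wald test (adjusted p = 0.0393) and with these groups fitted alone (adjusted p = 0.00344). In LPS mice it was 0.14 ± 0.16 and not called, but with total-count scaling it was 0.41 (adjusted p = 0.00897), and with no filter on low counts it turned to -0.41 (adjusted p = 0.0214). Csf1 was higher in sorted cells by 0.82 ± 0.26 in PBS mice (adjusted p = 0.00344), with values of 55.01, 48.4 and 28.03 CPM in sorted cells against 24.1, 24.97 and 26.7 CPM in pull-down. With no filter on low counts that difference was 0.33 (adjusted p = 0.296), and without sorted replicate 1 it was 0.59 (adjusted p = 0.0794).

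Il34 had 0 reads in all 15 sorted libraries of the LPS and digest experiments, and 1 read each in 3 of the 7 pull-downs from sorted cells. Against the whole-brain pull-down it was at least 13.2-fold lower in sorted cells of PBS mice and at least 15.8-fold lower in those of LPS mice, with a floor of 3 reads over the sorted group. The neuronal markers summed to 88.9 to 164 CPM in sorted cells and 1957 to 2324 CPM in pull-down from PBS mice, and were measured at more than 0 for all 12 genes in both. Their part in the Il34 reads of the pull-down was not tested. Csf3 in LPS mice had 1 read in sorted cells and 308 reads in pull-down, a ratio by depth of 0.00787 with a 95% counting interval of 0.000199 to 0.0442. Il34 and Csf3 thus had 0 and 3 reads in the 7 sorted libraries of the LPS experiment. The 10 border macrophage markers summed to 328 to 479 CPM in sorted cells and 1154 to 1265 CPM in pull-down from PBS mice. Of these markers 9 were called lower in sorted cells, where 38.7% of all genes were. The part of these markers in the member differences was not tested.

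In pull-down from sorted cells of PBS mice Csf1r was higher and Csf3r lower than in sorted cells without pull-down. These 2 of 8 members were called where 31.9% of all genes were, a share near that background. Csf1r had 18630.4, 15918 and 17401 CPM in pull-down from sorted cells and 7924, 8571 and 8119.5 CPM in sorted cells, a difference of 1.08 ± 0.18 (adjusted p = 4.94e-06). Csf3r went the other way, with 192, 159 and 87.7 CPM in pull-down from sorted cells and 255, 357 and 334 CPM in sorted cells, a difference of -1.13 ± 0.29 (adjusted p = 0.00335). Neither pair of groups overlapped. Csf2rb averaged 242 CPM in pull-down from sorted cells and 242 CPM in sorted cells, with a difference of -0.02 ± 0.18. Csf2ra was not called, at -0.46 ± 0.29, but was without replicate 1 of pull-down from sorted cells (-0.95, adjusted p = 0.0328). The 15 microglial markers summed to 96951 to 104166 CPM in pull-down from sorted cells and 50560.4 to 51493 CPM in sorted cells of PBS mice.

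The order of the levels over the 8 groups of the LPS experiment differed by gene. Csf1r was highest in pull-down from sorted cells of PBS mice, then in those of LPS mice and in sorted cells of PBS mice, each without overlap with the next; sorted cells of LPS mice and both whole-brain pull-downs overlapped, and both IgG1 groups were lowest. Csf2rb was highest in sorted cells of LPS mice, then in pull-down from sorted cells and whole-brain pull-down of LPS mice, all above every PBS group. Csf3r was highest in sorted cells of PBS mice, 315 CPM, with no overlap with the next group. Csf1 was highest in pull-down from sorted cells and sorted cells of LPS mice, 120.2 and 115 CPM, which overlapped each other and not the LPS pull-down at 60.02 CPM. Il34 was highest in the IgG1 groups, at 27.8 CPM in LPS mice and 28.1 CPM in PBS mice, and Csf3 in IgG1 of LPS mice, each overlapping the whole-brain pull-down.

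In the digest experiment the receptors were again higher in sorted cells than in pull-down, and no member was called between digest and no digest. Against whole-brain pull-down, 7 of 7 members tested were called in cells sorted after the digest, 6 higher and 1 lower, and 6 of 7 in cells sorted without it, 5 higher and 1 lower. The background of calls was 72.8% of genes in each comparison. Csf2ra had 156, 158, 175 and 158 CPM in cells sorted after the digest and 171, 150.2, 141 and 179 CPM in cells sorted without it, against 40.2, 41.1 and 35.1 CPM in pull-down. The differences from pull-down were 2.06 ± 0.16 and 2.04 ± 0.16. Csf3r was 415, 396, 361 and 338 CPM after the digest and 394, 403, 424 and 419 CPM without it, against 169, 168 and 154 CPM in pull-down, differences of 1.21 ± 0.14 and 1.33 ± 0.13. All sorted libraries stood above all pull-down libraries for both genes. Csf1r was higher as well, by 0.50 ± 0.13 after the digest and 0.51 ± 0.13 without it. Il34, at 0 reads in all 8 sorted libraries, was at least 16.4-fold lower after the digest and at least 17.7-fold lower without it than in pull-down.

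Between the digest and no digest 0 of the 7 members tested were called by edgeR, where 0.139% of all genes were: 16 genes were called and 521 had an unadjusted p under 0.05. Of the members 1, Csf1, had an unadjusted p under 0.05, and DESeq2's Wald test called 0. Csf1r had 9104, 7612, 7026 and 6964 CPM after the digest and 7634, 7229.7, 8101 and 7998 CPM without it, overlapping, with a difference of -0.01 ± 0.12. Csf2rb had 213, 205, 174 and 207 CPM after the digest and 214, 215, 214 and 215 CPM without it, apart by a small margin, with a difference of -0.10 ± 0.12 (adjusted p = 1). Csf1 had 33.2, 44.6, 21.7 and 38.1 CPM after the digest and 22.2, 27.04, 23.2 and 22.8 CPM without it, a difference of 0.54 ± 0.24 (adjusted p = 1). Of the digested samples 3 of 4 were above and 1 below all undigested ones. Csf1 was called against pull-down after the digest (0.60 ± 0.25, adjusted p = 0.0334) and not without it (0.06 ± 0.26, adjusted p = 0.848), but the direct comparison does not show that these differ. The first call was lost without pull-down replicate 2 or 3 or sorted replicate 2 or 4 (adjusted p values of 0.0719 to 0.208). The neutrophil and monocyte markers summed to 7.43 to 238 CPM after the digest and 9.01 to 382 CPM without it, so libraries differed widely in them within each group; their part in the Csf3r level was not tested. Of the signalling genes 1 of 26 was called, Socs3, higher after the digest by 0.96 ± 0.14 (adjusted p = 4.36e-05).

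**Figure D4:**
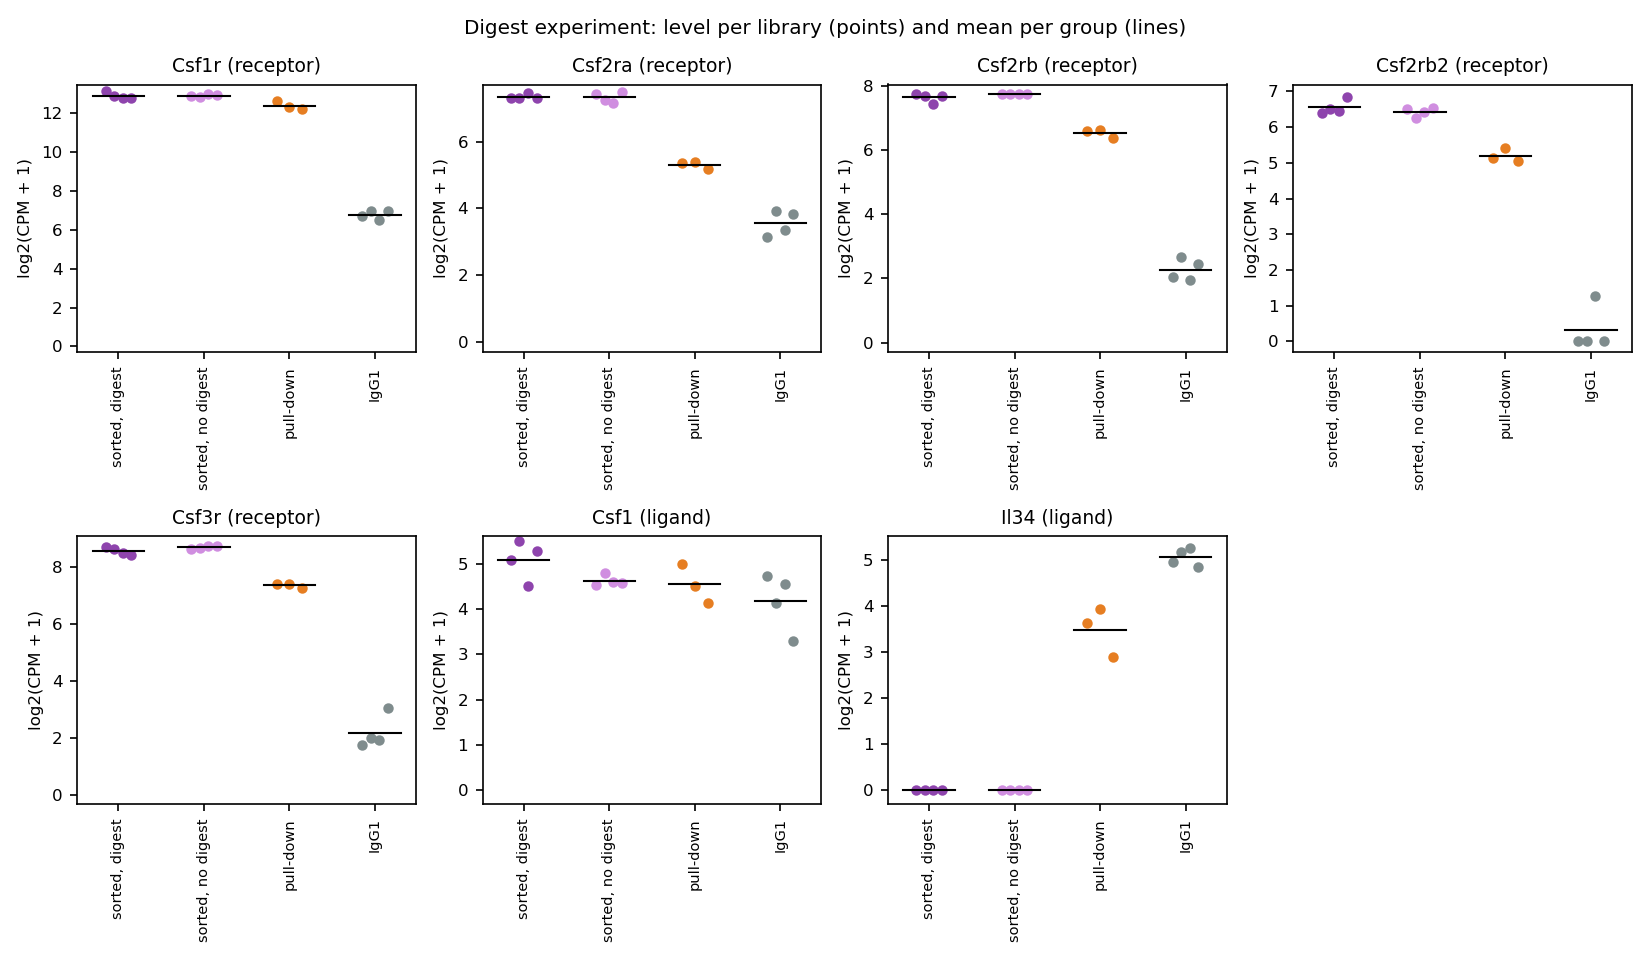
Level of the 7 members tested in the 15 libraries of the digest experiment (y axis, log2 of CPM plus 1; points are libraries, lines group means). Receptors step down from sorted cells to pull-down to IgG1, Il34 runs the other way, and digested and undigested sorted cells lie side by side.

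In the driver experiment the receptors were enriched most with CX3CR1CreER and tamoxifen. There CX3CR1CreER pull-down held Csf1r at 9525, 8829 and 7084 CPM, against 69.4, 65.6 and 41.5 CPM in input, a difference of 7.18 ± 0.32 (adjusted p = 3.62e-19). Against input 6 of 7 members tested were called, 5 higher and 1 lower, with 64.2% of all genes called; against IgG1 the count was again 6 of 7, 5 higher and 1 lower, with 66.1% of genes called. Csf2rb stood 5.96 ± 0.41 above input and Csf3r 6.49 ± 0.52 above input, on 6 and 4 input reads. Csf2rb2 had 71 pull-down reads and 2 input reads, a ratio by depth of 75.00 with a 95% counting interval of 20.01 to 631. Csf2ra had 44.9, 44.6 and 39.1 CPM in pull-down and 8.41, 5.96 and 6.25 CPM in input, a difference of 2.63 ± 0.34 (adjusted p = 2.67e-08). For all 5 receptors every pull-down library lay above every input library. Il34 had 11.6, 14.9 and 13.04 CPM in pull-down and 30.1, 20.1 and 22.3 CPM in input, without overlap, and fell by 0.88 ± 0.33 on the log2 scale (adjusted p = 0.0211). With DESeq2 size factors that was -0.73 (adjusted p = 0.0537), and the call was also lost without pull-down replicate 1 or 3 or input replicate 1 (adjusted p values up to 0.0884). Against IgG1 Il34 fell by 1.14 ± 0.33 (adjusted p = 0.00308). Csf1 was not called, at -0.55 ± 0.35 against input and 0.69 ± 0.39 against IgG1, but was against input with total-count scaling (-1.02, adjusted p = 0.00944), against input without pull-down replicate 1 (-1.18, adjusted p = 0.0121) and against IgG1 without replicate 3 (1.02, adjusted p = 0.0327).

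In CX3CR1Cre mice Il34 was higher in pull-down than in input. It had 50.5, 58.9 and 43.7 CPM in CX3CR1Cre pull-down and 20.3, 19.7 and 15.9 CPM in the matching input, a rise of 1.45 ± 0.26 (adjusted p = 5.57e-05). Every pull-down library lay above every input library. Csf1r had 157, 371 and 358 CPM in CX3CR1Cre pull-down and 72.9, 64.8 and 45.5 CPM in input, a difference of 2.27 ± 0.26 (adjusted p = 1.31e-07). IgG1 from CX3CR1Cre mice had 111 to 131 CPM of Csf1r, above every input library and below every pull-down library. The same IgG1 had 10.3 to 32.9 CPM of Il34, below every pull-down library, and 6.20 to 9.15 CPM of Csf1, below every input library. CX3CR1Cre pull-down was not tested against this IgG1. Csf3r rose by 2.05 ± 0.67 (adjusted p = 0.0166) at 3.79 to 5.57 CPM in pull-down and 0.569 to 1.79 CPM in input, and Csf1 fell by 0.86 ± 0.34 (adjusted p = 0.0469) at 7.14 to 20.2 CPM in pull-down and 24.5 to 27.3 CPM in input. In all 4 of 7 members tested were called, 3 higher and 1 lower, where 34.9% of all genes were called. The call of Csf1 was lost without any of 5 of the 6 libraries (all but pull-down replicate 1), and that of Csf3r without pull-down replicate 2 or input replicate 2 or 3, which left 2 members called. Csf2ra and Csf2rb were not called, at 0.29 ± 0.40 and 1.31 ± 0.60.

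Set against each other, CX3CR1Cre pull-down had less of every receptor and more Il34 than CX3CR1CreER pull-down with tamoxifen. Of 7 members tested 6 were called, 1 higher and 5 lower, where 55.7% of all genes were called. The member median was -4.04, against 0.20 over all genes. On the log2 scale Csf1r fell by 4.85 ± 0.28 (adjusted p = 8.14e-16), Csf3r fell by 4.04 ± 0.41 (adjusted p = 1.64e-10) and Csf2ra fell by 2.46 ± 0.35 (adjusted p = 1.82e-07). Csf2rb2 had 3 reads in CX3CR1Cre pull-down and 71 in CX3CR1CreER pull-down, a ratio by depth of 0.0253 with a 95% counting interval of 0.00510 to 0.0770. Il34 was higher by 1.96 ± 0.32 (adjusted p = 2.02e-06), at 50.5, 58.9 and 43.7 CPM in CX3CR1Cre pull-down and 11.6, 14.9 and 13.04 CPM in CX3CR1CreER pull-down. The interaction that also takes out the inputs called the same number, 6 of 7 with 1 higher and 5 lower, at 43.6% of all genes, and gave 2.32 ± 0.42 for Il34 (adjusted p = 2.83e-05). Csf1 was not called in either, at -0.59 ± 0.39 and -0.31 ± 0.49. The neuronal markers summed to 5947 to 7855 CPM in CX3CR1Cre pull-down, 1653 to 2356 CPM in CX3CR1CreER pull-down with tamoxifen and 6285 to 6402 CPM in CX3CR1Cre input, and their part in the Il34 level was not tested. The mouse line and the tamoxifen treatment differ together between these groups and cannot be told apart.

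Without tamoxifen, the CX3CR1CreER pull-down still held receptor messages above input. Csf1r had 1490.3 and 1248 CPM in pull-down and 71.1 and 73.7 CPM in input, a difference of 4.24 ± 0.35 (adjusted p = 9.79e-11). IgG1 without tamoxifen had 82.5 and 139 CPM of Csf1r, and the pull-down was not tested against it. Csf2rb had 14 reads over the pull-downs and 3 over the inputs, a ratio by depth of 33.4 with a 95% counting interval of 9.32 to 181. For Csf3r these were 7 reads and 1 read, a ratio of 50.1 with an interval of 6.44 to 2258. The pull-down libraries stood above both inputs for all 3 genes. Together with Csf2ra (1.82 ± 0.62, adjusted p = 0.0499), 4 of 7 members tested were called, all higher, where 10.9% of all genes were called. The Csf2ra call was lost without any of the 4 libraries (adjusted p values of 0.0932 to 0.388) and that of Csf3r without pull-down replicate 1 (adjusted p = 0.0642).

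Of the 5 receptors 4 were called higher in CX3CR1CreER pull-down with tamoxifen than without it. Csf1r had 9525, 8829 and 7084 CPM with tamoxifen and 1490.3 and 1248 CPM without it, a difference of 2.63 ± 0.30 (adjusted p = 3.13e-08). Csf3r was higher by 2.29 ± 0.58 (adjusted p = 0.00189) and Csf2rb by 1.31 ± 0.42 (adjusted p = 0.0141). Csf2rb2 had 71 reads with tamoxifen and 2 without, a ratio by depth of 6.39 with a 95% counting interval of 1.70 to 53.8. Csf2ra had 39.1 to 44.9 CPM with tamoxifen and 20.5 and 25.8 CPM without it, higher without overlap. Its difference of 0.87 was not called, on 10 reads without tamoxifen. Il34 went the other way, with 11.6, 14.9 and 13.04 CPM with tamoxifen and 51.7 and 25.7 CPM without it, a fall of 1.59 ± 0.48 (adjusted p = 0.00905). In all 5 of 7 members tested were called, 4 higher and 1 lower, where 34.7% of all genes were called. With total-count scaling 3 were called, and without pull-down replicate 1 of the untreated group 2 were, with Il34 at -0.90 (adjusted p = 0.423). Without replicate 2 of that group 3 were called; Csf2rb and Csf2rb2 were the calls lost in all 3 cases, and Csf2rb was lost too without replicate 2 of the treated group (adjusted p = 0.0559). The IgG1 control differed from input in 1 of 7 members tested, where 35.0% of all genes were called: Csf1 had 17.3, 8.88 and 14.1 CPM in IgG1 and 37.1, 26.1 and 32.1 CPM in input, a difference of -1.24 ± 0.35 (adjusted p = 0.00521).

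**Figure D5:**
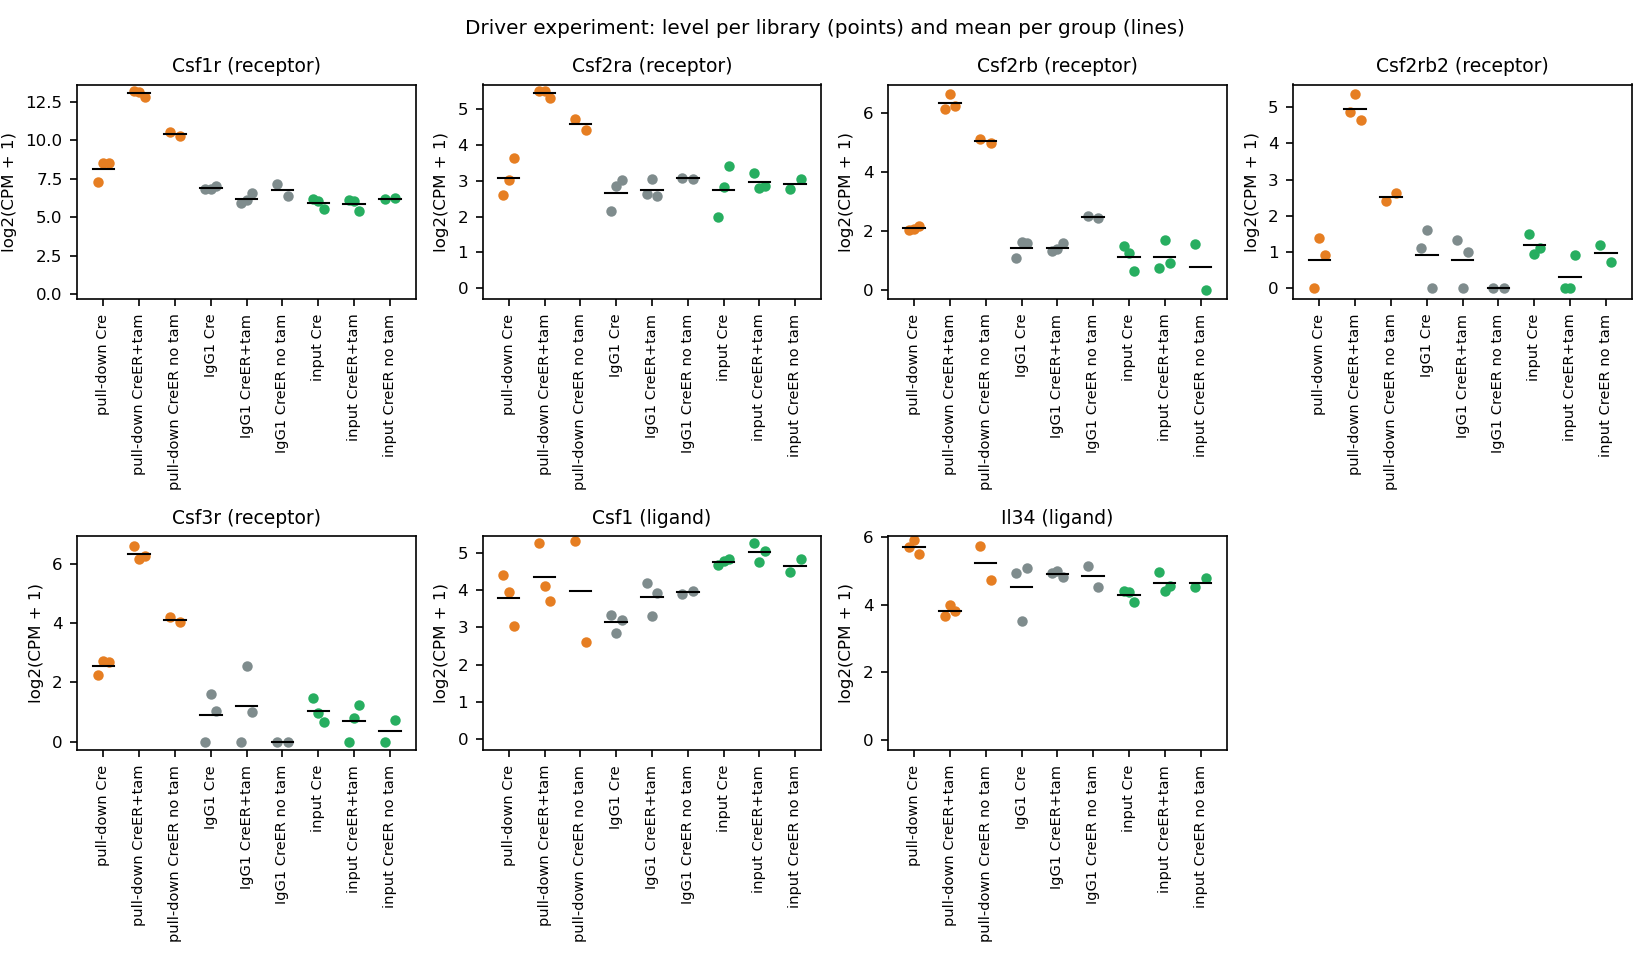
Level of the 7 members tested in the 24 libraries of the driver experiment (y axis, log2 of CPM plus 1; points are libraries, lines group means; pull-down orange, IgG1 grey, input green). The receptors are highest in CX3CR1CreER pull-down with tamoxifen, lower without tamoxifen and lowest among pull-downs in CX3CR1Cre mice, while Il34 is lowest in CX3CR1CreER pull-down with tamoxifen.

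Most signalling genes were lower in the CX3CR1Cre pull-down as well. Of 26 signalling genes 24 passed the filter in the driver experiment, and 3 were called higher and 19 lower in CX3CR1Cre than in CX3CR1CreER pull-down with tamoxifen, where 55.7% of all genes were called, with a median of -2.16 against 0.20 over all genes. Irf8, a transcription factor of the macrophage lineage, differed by -4.85 ± 0.24, Inpp5d, the lipid phosphatase SHIP1, by -4.86 ± 0.26 and Lyn, a Src-family kinase, by -4.63 ± 0.28. Against input, CX3CR1CreER pull-down with tamoxifen had 19 of 24 higher and 2 lower, where 64.2% of all genes were called. Between sorted cells and pull-down in PBS mice 10 of 26 were higher and 7 lower, with Socs3 at 2.68 ± 0.23; that share is below the 71.9% of all genes called.

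Across the 28 libraries of the LPS experiment, the genes whose log2 CPM followed Csf1r most closely were Cd68 (0.996), Lgmn (0.995), Itgb2 (0.995), Abi3 (0.994) and Ly6e (0.994), with Pearson's r in brackets. Csf3r was followed by Golm1 (0.964), Il10ra (0.964), Ncbp3 (0.962), Ppcdc (0.960) and Hmha1 (0.957), and Csf1 by Rbpj (0.961), Nfkbia (0.957), Srgn (0.954), Pfkfb3 (0.951) and Cd83 (0.949). For Csf1r the same 5 genes had r of 0.991 to 0.997 over the 15 digest libraries and 0.935 to 0.977 over the 24 driver libraries. For Csf1 the r values were 0.538 to 0.633 and 0.0761 to 0.707 in the same order. These correlations run over libraries of different preparations, share their preparation and depth, and are given as a description.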

How the data were processed

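The 67 libraries came in 3 deposited tables of raw counts per gene, whole numbers of reads over exons. Per the submitters' processing notes the authors used bcl2fastq, HISAT 0.1.5 and HOMER with the mm9 build; the roles and order of the tools, the library's strandedness and read depth before counting are not given in the sources used here. Gene lengths were not used, so levels are not compared between genes. Columns were matched to samples by title.

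From the counts, the filterByExpr function of edgeR (minimum count 10) left 11444, 11529 and 11868 genes in the LPS, digest and driver experiments. Each experiment was fitted as a whole with edgeR 4.0.16 in R 4.3.3 (TMM, robust quasi-likelihood F test, Benjamini-Hochberg adjustment over all genes tested, threshold 0.05), with 1 mean per group and no covariate; 23 comparisons were made. A standard error is the log2 fold change divided by the square root of F. Groups with 1 to 3 reads get a ratio of pooled reads by depth with an exact 95% binomial interval, which covers counting error only, and groups with 0 reads a bound at 3 reads over the group. DESeq2 1.42.0 was an alternative. Counts were simulated with 200 changed genes, and shares are of the 90 to 99 of each size that passed the filter. Of genes changed by 1 on the log2 scale, the test found 73.3% for LPS in whole-brain pull-down. The share was 37.2% in pull-down from sorted cells and 8.51% for pull-down against input without tamoxifen. For changes of 2 the shares were 96.8%, 84.4% and 57.6%, with 4, 0 and 6 false calls in the same order. The simulation gave all libraries the same expected proportions apart from the changed genes. It held no differences between preparations, so these shares do not give the recovery in the real data.

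The members, gene lists and comparisons were chosen with earlier results of these data known. The named genes were the 8 members, up to 3 called genes with the smallest p from each pathway list, and the 5 genes most correlated with Csf1r, Csf1 and Csf3r. Replicate numbers were checked for pairing. Same-numbered libraries of different groups but the same kind of mouse had median correlations of 0.0163 to 0.0269 by experiment. For other numbers these medians were -0.0129 to -0.00715. Between kinds of mouse, which cannot share an animal, the same-number medians were 0.00354 and 0.0124. Titles of the LPS experiment carry the same running number across preparations, but no label says that it marks an animal. Such small correlations cannot decide this. The numbers were not taken as pairs, so the main tests treat all libraries as unpaired. Promoter sequences come from a RefSeq table and were matched by symbol.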

Additional observations from a re-analysis of the deposited data

Results flagged for a closer look

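Of 47 sets of values examined, each 1 member in 1 group of 4 libraries, 4 held a library that stood apart from the other 3 by Dixon's ratio; chance gives about 1 in 20. Csf1 in pull-down from LPS mice was 62.6 CPM in replicate 1 against 59.0 to 59.4 CPM in the others. Csf1r in IgG1 from LPS mice was 311 CPM in replicate 3 against 179 to 199.6 CPM in the others. Csf2ra in cells sorted after the digest was 175 CPM in replicate 3 against 156 to 158 CPM in the others. Csf3r in IgG1 of the digest experiment was 7.38 CPM in replicate 4, on 5 reads.

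For 2 contrasts the difference between groups was itself called by edgeR's quasi-likelihood test. The LPS effect on Csf2rb was larger in pull-down than in IgG1 by 1.39 on the log2 scale, and in each preparation every LPS library was above every PBS library (adjusted p = 0.0114). The enrichment of pull-down over input in CX3CR1Cre mice minus that in CX3CR1CreER mice with tamoxifen was -4.92 for Csf1r, -2.34 for Csf2ra, -4.64 for Csf2rb, -4.44 for Csf3r and 2.32 for Il34, with adjusted p values of 0.00154 or less. For Csf2rb2 the fitted value was -6.59, which rests on 3 reads in CX3CR1Cre pull-down and 2 in CX3CR1CreER input and depends on the prior count.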

How the results depend on the processing

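Of single-member results, 1 estimate turned direction and was then called: Csf1r in sorted cells against pull-down of LPS mice was -0.41 with no filter on low counts, against 0.14, not called, with it; the cause was not tested. Small estimates called in neither setting changed sign in 26 of 1182 repeats with other settings and in 54 of 1280 that left out 1 library. Leaving out a library lost a call in 43 of the 1280 and added a call in 8. The 1280 include members not called in the main fit, so 43 of 1280 is not the share of calls lost.

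With LPS in IgG1, 132 genes were called, against 213 with no filter, 84 with only these groups fitted and 86 to 172 without 1 library. For the LPS effect in sorted cells minus pull-down, 367 genes were called, against 552 with only these groups and 196 to 437 without 1 library; 0 members became 1 (Csf3) with no filter, DESeq2's Wald test or a replicate block. For the LPS effect in pull-down minus IgG1, 1 member became 2 with no filter or DESeq2's Wald test (Csf3r added) or the beta chains summed (their sum, 1.10, stands in for both), and 0 to 1 without 1 library. Between digest and no digest, 16 genes became 25 with no filter, 25 with DESeq2's Wald test and 30 with only these groups. Against input without tamoxifen, 1293 genes became 451 to 817 and 4 members 2 to 3 without 1 library; in CX3CR1Cre mice 4 members became 2 to 4. With against without tamoxifen, 4120 genes became 2517 to 4001 and 5 members 2 to 5 without 1 library, and 3 with total-count scaling.

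The replicate block, for numbers not shown to pair, ended the Csf3r call with LPS in pull-down (adjusted p = 0.0687, edgeR) and added Csf2ra in sorted cells (adjusted p = 0.0217) and Csf3 in the interaction (adjusted p = 0.0264).

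Scaling moved the share of calls that were higher. With LPS in pull-down it was 58.6%, against 45.0% with DESeq2 size factors and 40.6% with total counts. For pull-down against IgG1 it was 50.8% in PBS mice, against 32.2% and 35.2%, and 51.6% in LPS mice, against 31.9% and 34.4%; for the LPS effect in pull-down minus IgG1 it was 65.3%, against 45.7% and 47.5%. With total counts alone it was 31.5% against 52.3% for pull-down from sorted cells, 28.8% against 44.7% for CX3CR1CreER pull-down over input with tamoxifen, 30.4% against 46.6% for the same over IgG1, 28.1% against 51.8% for CX3CR1Cre pull-down over input, and 29.7% against 52.8% for tamoxifen.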
